A study of Mus musculus with 6 samples.

Results

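The genes described here encode, or help to assemble, the nuclear part of mitochondrial respiratory complexes II, III and V. They were chosen by name: protein-coding nuclear genes of the mouse whose symbol is Sdha, Sdhb, Sdhc, Sdhd, Cyc1 or Cycs, or starts with Sdhaf, Uqcr, Uqcc or Atp5. Of 55401 gene identifiers in the deposited tables, 39 met this rule, 8 for complex II, 13 for complex III with its electron acceptor cytochrome c, and 18 for complex V. Transcript levels were measured by poly(A) RNA sequencing in the myocardium of male WT mice, with 3 libraries after PBS injection (Ctrl1 to Ctrl3) and 3 after STZ injection (DM1 to DM3), all with the time label 8-week. Streptozotocin (STZ) destroys pancreatic beta cells, the source of insulin, and is used to make mice diabetic, and PBS is the buffer given to the controls. The labels give no strain name, age, dose or blood glucose, and do not say that each library came from a separate mouse, so each p-value is relative to a spread between libraries that may be technical only.

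Complex II, succinate dehydrogenase, oxidises succinate in the citric acid cycle and passes the electrons to ubiquinone. Complex III takes them from ubiquinol to cytochrome c and pumps protons across the inner mitochondrial membrane, and complex V, the ATP synthase, lets the protons flow back through a rotating ring of c subunits to make ATP. The heart depends on this machinery for nearly all of its ATP. Complex II is encoded wholly in the nucleus, whereas complexes III and V each contain subunits made from mitochondrial DNA.

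Values are FPKM, fragment counts scaled to transcript length and to the mapped total of the library, so levels can be set side by side between genes of different length. The file of Ctrl3 lists 7711 genes, 13.9% of the table, and 22 of the members are among them. Tests were therefore made on Ctrl1, Ctrl2 and the 3 DM libraries, with Ctrl3 given where it lists a gene. DM3 correlated less with DM1 and DM2 (Pearson r = 0.965 and 0.966 across 11556 genes, log2 scale) than these did with each other (0.973), and for the genes described here it stood apart in a way given below. The ventricular muscle markers summed to 9060 to 9918 FPKM in Ctrl1 and Ctrl2 and 8018 to 9807 in DM, and 6 skeletal muscle markers together to at most 0.39, as the tissue label states. Some markers of other cells moved with the groups: all 3 tested neutrophil markers were called higher in DM (summed level of the list 3.64 to 8.22 against 41.8 to 57.4 FPKM). None of the ventricular, atrial, red cell or macrophage markers was called. The red cell list summed to 283 to 310 FPKM in Ctrl1 and Ctrl2 and to 329, 959 and 361 in DM1 to DM3. All 5 of its genes were higher in DM by log2 change. The macrophage list summed to 92.3 to 99.1 in Ctrl1 and Ctrl2 and 70.1 to 95.7 in DM, with 5 of 6 genes lower. In other lists single genes were called. Fabp4 was the 1 of 6 endothelial markers called, higher in DM (list sum 183 to 185 against 280 to 392), while Kdr (log2 change -0.17) and Tie1 (-0.11) lay on the lower side. Cidea, called higher, made up nearly all of the fat list (15.9 to 20.9 against 39.3 to 47.7), in which Adipoq, Plin1 and Cidec were at most at 0.43 FPKM and Ucp1 was at 0. Col1a1, 1 of 7 fibroblast markers, was called lower, with 4 of the 7 higher by their means and list sums of 433 to 468 against 429 to 480. Acta2, 1 of 6 smooth muscle and pericyte markers, was called lower, with 2 of the 6 higher by their means and sums of 164 to 179 against 129 to 172. The atrial list ran from 303 to 1329 FPKM in Ctrl1 and Ctrl2 and 961 to 3306 in DM, and most of this was Nppa. Nppa lay on the higher side (log2 change 1.66), while Myl7 (-1.64), Sln (-1.31) and Myl4 (-1.20) lay on the lower side. Myl7 was at 262.36, 37.86 and 0.21 FPKM in Ctrl1 to Ctrl3 and at 357.43, 73.69 and 0.28 in DM1 to DM3. It was thus near 0 in Ctrl3 as well as in DM3, and Ctrl3 is not part of its log2 change. Sln and Myl4, not listed in Ctrl3, were at 0 and 0.21 FPKM in DM3. The part of these cells in the values below was not tested, and in a bulk sample fewer cells of a type and less RNA per cell cannot be told apart.

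No gene of the 3 complexes passed the test between DM and Ctrl. Of the 39 identifiers, 38 were tested with limma on log2(FPKM + 1), and 0 had an adjusted p under 0.05, against 672 of the 11556 genes tested (5.82%). An unadjusted p under 0.05 was found for 7 of the 38, a share of 18.4% against 26.6% of all genes. The 39th identifier, a second Atp5o model that overlaps both Atp5o and Donson, was listed at 0 in the 5 complete libraries. The changes were small: 30 of 38 lay within 0.25 of 0 on the log2 scale, and the range was -0.61 (Sdhaf4) to 0.38 (Atp5g2). The 95% confidence intervals of 37 members excluded a log2 change of 1 in either direction, and the interval of Sdhaf4 reached -1.05. Complexes II and III lay mostly on the lower side and complex V around 0. In all, 26 members had a lower mean log2 value in DM and 12 a higher one, with a median of -0.08 where all tested genes had a median of 0.06 and 43.0% were lower. The members' median was -0.04 without DM2 and -0.0097 as TPM, in which every library is rescaled to the same total.

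**Figure D1:**
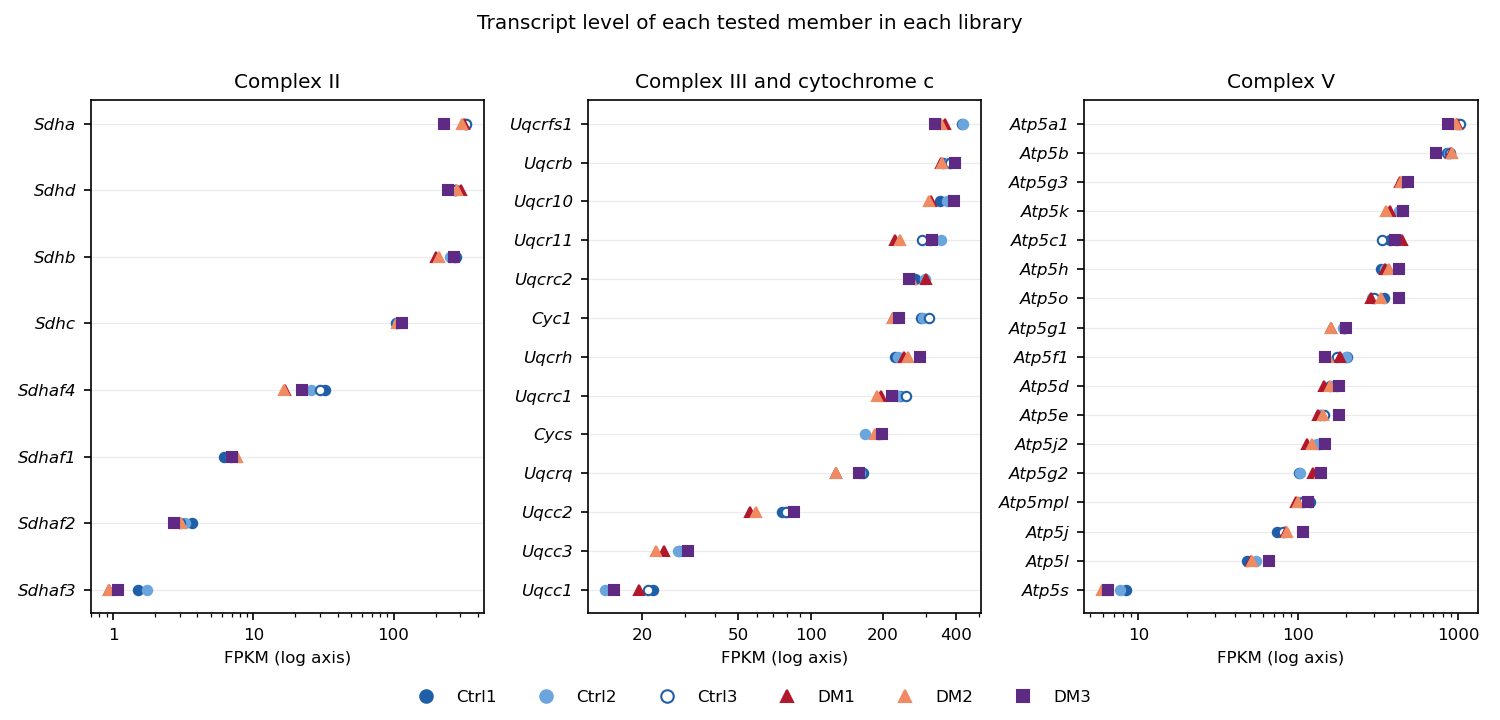
FPKM of each of the 38 tested genes in each library, on a log axis, by complex and ordered by mean level. Circles are Ctrl, with Ctrl3 open and shown only where its file lists the gene, triangles are DM1 and DM2, and squares are DM3. The ATP synthase catalytic pair Atp5a1 and Atp5b had the highest levels of the set, and the lowest levels were those of assembly factors of complex II.

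The complexes differed in level as well. Of the 38 tested genes, 28 had a mean above 100 FPKM over the 5 complete libraries, and all 28 were subunits or cytochrome c. The 7 assembly factors ranged from 1.24 FPKM (Sdhaf3) to 71.2 FPKM (Uqcc2). Together the members made up 5.06% and 5.08% of the FPKM of nuclear protein-coding genes in Ctrl1 and Ctrl2, and 4.74%, 4.51% and 4.75% in DM1, DM2 and DM3. Both Ctrl shares were above all 3 DM shares. By complex, the mean share was 0.576% ± 0.0103 (SD, n = 2) in Ctrl and 0.506% ± 0.0324 (SD, n = 3) in DM for complex II, 1.69% ± 0.0262 and 1.47% ± 0.0907 for complex III, and 2.81% ± 0.000424 and 2.69% ± 0.0541 for complex V. These differences depend on the denominator. Mitochondrial transcripts made up 47.3% and 47.1% of all FPKM in Ctrl1 and Ctrl2 and 45.5%, 42.0% and 43.3% in DM. Of the FPKM of all genes the members took 1.52% ± 0.00460 in Ctrl and 1.53% ± 0.0493 in DM. On that base complex V was at 0.844% in Ctrl and 0.883% in DM, the other direction.

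**Figure D2:**
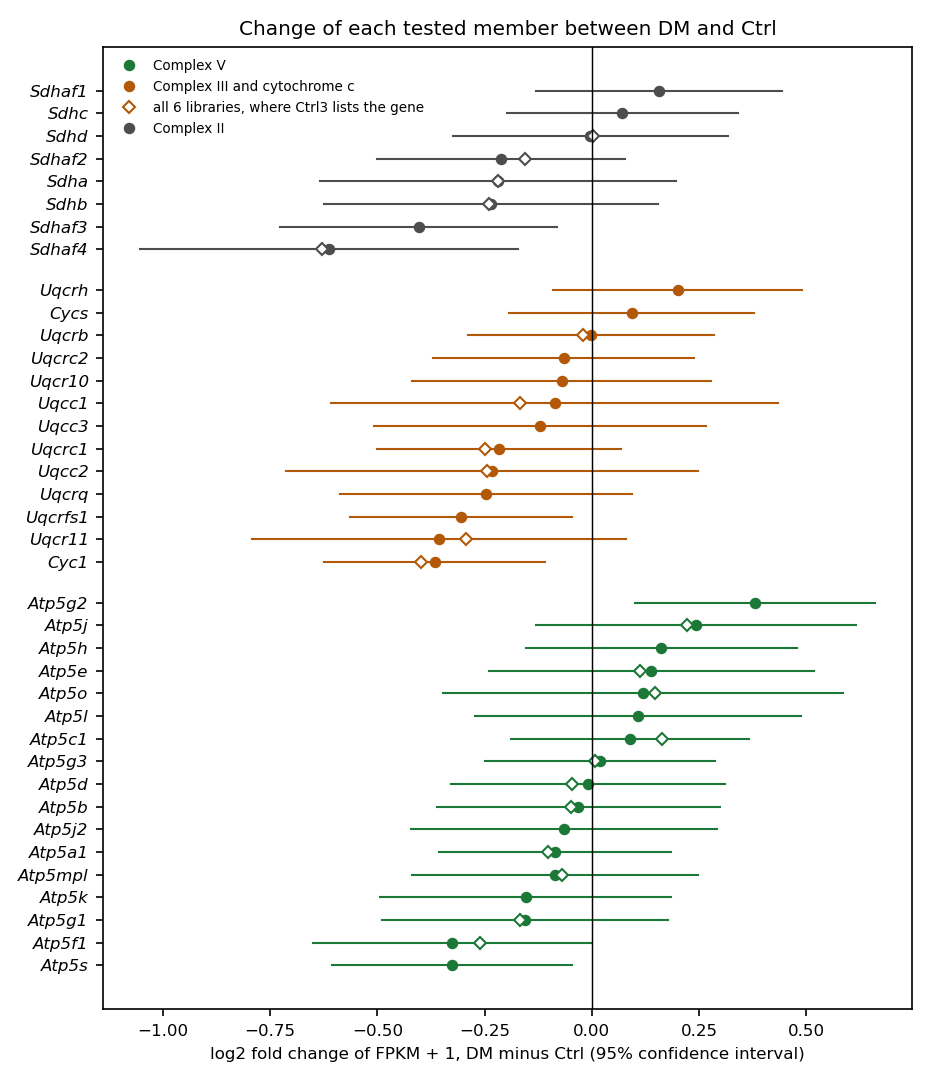
Log2 fold change of FPKM + 1, DM minus Ctrl, for each tested gene, with its 95% confidence interval from limma on 5 libraries (filled points) and the estimate from all 6 libraries where Ctrl3 lists the gene (open diamonds). Complex II is at the top, complex III with cytochrome c in the middle and complex V at the bottom. Most points of complexes II and III lie left of 0, and those of complex V on both sides.

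In complex II, 6 of 8 genes were lower in DM by their mean, with a median log2 change of -0.21, and the assembly factors Sdhaf4 and Sdhaf3 lay farthest from 0. Sdhaf4, which binds the flavin-loaded Sdha and promotes its joining with Sdhb, is at chromosome 1, positions 23995939 to 24005656 of GRCm38 (ENSMUSG00000026154). It was at 32.30 FPKM in Ctrl1, 25.61 in Ctrl2 and 29.77 in Ctrl3, and at 16.90, 16.59 and 22.41 in DM1, DM2 and DM3. Each Ctrl library was above each DM library. The log2 change was -0.61 ± 0.18 (SE), with a limma adjusted p of 0.0992. Over the 4824 genes that all 6 files list, where 987 genes (20.5%) were called, the log2 change was -0.63 ± 0.14 and the adjusted p 0.0208. With Ctrl3 added and all genes kept it was 0.0426, so the call on Sdhaf4 changed with the third control. Sdhaf3, which like Sdhaf1 serves the iron-sulfur clusters of Sdhb, was at 1.5 and 1.75 FPKM in Ctrl1 and Ctrl2 and at 0.93, 0.93 and 1.09 in DM. Those groups did not overlap, but the levels are at the filter of 1 FPKM, and the adjusted p was 0.123. Sdhaf2, needed to attach the flavin to Sdha, had a log2 change of -0.21, and Sdhaf1 one of 0.16. Over 69.6% of its exon length Sdhaf1 overlaps a gene on the opposite strand that was listed at 0.

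The catalytic subunits of complex II did not move together across the DM libraries. Sdha, the flavoprotein that oxidises succinate and the most abundant transcript of the complex, was at 325.20, 330.59 and 328.88 FPKM in Ctrl1 to Ctrl3 and at 320.07, 306.97 and 227.65 in DM1 to DM3. Its log2 change of -0.22 ± 0.17 (adjusted p = 0.456 by limma) rested mainly on DM3, and without that library it was -0.06. Sdhb, the iron-sulfur subunit, was at 278.38, 252.36 and 268.05 FPKM in Ctrl1 to Ctrl3 and at 199.44, 212.29 and 269.72 in DM1 to DM3. Here DM1 and DM2 were low, and DM3 was inside the Ctrl range. The ratio of Sdha to Sdhb, 1.17, 1.31 and 1.23 in Ctrl, was 1.61, 1.45 and 0.844 in DM. The membrane anchors Sdhc and Sdhd, which bind ubiquinone and a haem, had log2 changes of 0.07 and -0.0032.

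Complex III had 11 of 13 genes lower in DM by their mean, with a median log2 change of -0.12. The catalytic pair lay farthest from 0 in relation to its spread. Cyc1, cytochrome c1, which hands electrons to cytochrome c, is at chromosome 15, positions 76343523 to 76346260 (ENSMUSG00000022551). It was at 287.65, 291.62 and 309.14 FPKM in Ctrl1 to Ctrl3 and at 220.46, 219.67 and 233.39 in DM1 to DM3. All Ctrl values were above all DM values, and the SDs were 2.81 (n = 2, Ctrl1 and Ctrl2) and 7.70 (n = 3). The log2 change was -0.37 ± 0.11, a DM mean at 0.775 of the Ctrl mean, with a limma adjusted p of 0.0953. With all 6 libraries on the genes they share it was -0.40 ± 0.08 with a limma adjusted p of 0.0141. Cyc1 and Sdhaf4 were then the 2 called among the 22 members listed in Ctrl3, where 20.5% of all genes were called. Uqcrfs1, the Rieske iron-sulfur protein that takes the first electron from ubiquinol, was at 423.81 and 429.62 FPKM in Ctrl1 and Ctrl2 and at 360.43, 346.16 and 329.09 in DM. It is the most abundant transcript of the complex, its groups did not overlap, and its log2 change was -0.31 ± 0.11 (adjusted p = 0.136 by limma).

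The other subunits of complex III were less uniform. The core proteins Uqcrc1 and Uqcrc2, related to mitochondrial processing peptidases, had log2 changes of -0.22 and -0.07. Uqcrc1 was below all 3 Ctrl libraries in every DM library. Among the 5 small supernumerary subunits, Uqcr11 was at 312.19, 346.98 and 288.97 FPKM in Ctrl1 to Ctrl3 and at 224.49, 235.78 and 320.33 in DM1 to DM3, again with DM1 and DM2 low and DM3 within the Ctrl range (log2 change -0.36 ± 0.18). Uqcrq (-0.25) was lower and Uqcrh (0.20) higher in each DM library than in Ctrl1 and Ctrl2, and Uqcrb (-0.0015) and Uqcr10 (-0.07) overlapped. The factors Uqcc1, Uqcc2 and Uqcc3, which serve the synthesis and insertion of mitochondrially encoded cytochrome b, had log2 changes of -0.09, -0.23 and -0.12, and their groups overlapped. Leaving out 1 library at a time gave -0.39 to 0.22, -0.42 to -0.12 and -0.25 to -0.03 for them. Cycs, the mobile cytochrome c of somatic tissues, had a log2 change of 0.09, and near-identical copies bear on that value as described below.

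In complex V the tested genes split evenly, 8 higher and 9 lower by their means, around a median log2 change of -0.0093. The F1 head is where ATP is made, and its Atp5a1 and Atp5b had the highest levels of the complex. Atp5a1, the alpha subunit, was at 981.86, 1013.75 and 1029.03 FPKM in Ctrl1 to Ctrl3 and at 985.38, 975.90 and 862.81 in DM1 to DM3. DM1 lay among the Ctrl values and DM2 and DM3 below them, with a log2 change of -0.09 ± 0.11 and a 95% confidence interval of -0.36 to 0.18. The beta subunit Atp5b, which carries the catalytic sites, and the stalk subunits Atp5c1 (gamma), Atp5d (delta) and Atp5e (epsilon) had log2 changes between -0.03 and 0.14, and the groups overlapped for all 5 F1 genes.

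The peripheral stalk, which holds the F1 head still while the ring turns, held both directions. Atp5f1, subunit b, was at 201.30, 199.99 and 175.41 FPKM in Ctrl1 to Ctrl3 and at 181.80, 152.74 and 147.02 in DM1 to DM3. The DM libraries were below Ctrl1 and Ctrl2, but Ctrl3 was below DM1, and the log2 change of -0.33 ± 0.13 had a limma adjusted p of 0.186. Atp5j (coupling factor 6) was above all Ctrl libraries in each DM library with a log2 change of 0.24, and Atp5h (subunit d) and Atp5o (the oligomycin sensitivity protein) had changes of 0.16 and 0.12. Of the membrane subunits Atp5j2, Atp5k, Atp5l and Atp5mpl, which shape the dimer or attach to it, 3 were lower and Atp5l was higher, all between -0.15 and 0.11. Atp5s, also called coupling factor B, was at 8.35 and 7.65 FPKM in Ctrl1 and Ctrl2 and at 6.18, 5.93 and 6.41 in DM. Its groups did not overlap (log2 change -0.33 ± 0.12, adjusted p = 0.139 by limma), and its level was far below that of the subunits.

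Over the whole set, Ctrl1 and Ctrl2 did not overlap with DM for 14 of 38 members (36.8%), 10 lower and 4 higher in DM. Among all genes tested the share was 47.4%, with 18.8% lower and 28.7% higher in DM. With Ctrl3 included among the controls, 5 of 22 members did not overlap, against 41.9% of the genes of all 6 files. These were Cyc1, Uqcrc1, Sdha and Sdhaf4 on the lower side and Atp5j on the higher side.

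The c-ring of ATP synthase is encoded by Atp5g1, Atp5g2 and Atp5g3, which differ in the import sequence that is cut off and yield the same mature subunit. Their promoter sequences are shown because the genes took different shares in the 2 groups although they encode 1 protein. The bases before each start site, from RefSeq on GRCm38.p6, 5′ to 3′ on the gene's strand, lie at chr11:96075671-96075881 for Atp5g1, chr15:102671128-102671297 for Atp5g2 and chr2:73911327-73911576 for Atp5g3, all on the minus strand. Bases annotated as exon were left out, 39 for Atp5g1 and 80 for Atp5g2, and the Atp5g2 window lies within an intron of a longer annotated transcript. Capitals mark a match to the half-site of oestrogen-related receptors.
Atp5g1: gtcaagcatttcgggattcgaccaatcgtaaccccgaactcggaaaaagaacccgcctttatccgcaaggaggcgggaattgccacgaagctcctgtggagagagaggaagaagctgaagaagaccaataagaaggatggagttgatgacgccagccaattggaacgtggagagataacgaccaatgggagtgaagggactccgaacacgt
Atp5g2: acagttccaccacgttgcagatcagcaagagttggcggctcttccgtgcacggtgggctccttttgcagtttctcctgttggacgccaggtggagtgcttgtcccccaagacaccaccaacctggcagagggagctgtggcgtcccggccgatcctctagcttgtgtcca
Atp5g3: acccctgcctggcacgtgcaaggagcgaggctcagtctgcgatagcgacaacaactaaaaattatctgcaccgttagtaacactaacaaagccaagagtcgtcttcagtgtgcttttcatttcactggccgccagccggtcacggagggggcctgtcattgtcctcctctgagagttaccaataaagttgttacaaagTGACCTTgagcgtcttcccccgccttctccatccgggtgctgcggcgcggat
The match stands in Atp5g3 on the reverse strand, and the windows printed for the other c-ring genes hold none of the motifs searched. In the full window of Atp5g2 there was 1 more match, to the site of nuclear respiratory factor 1, which lies in the exon bases left out.

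Atp5g2 had the largest positive change of the 38 genes. It was at 100.51 and 102.57 FPKM in Ctrl1 and Ctrl2 and at 123.59, 136.30 and 138.11 in DM. All DM values were above both Ctrl values, and the log2 change was 0.38 ± 0.12 with a limma adjusted p of 0.105. Atp5g1 was at 192.86, 190.05 and 196.92 FPKM in Ctrl1 to Ctrl3 and at 160.70, 159.75 and 197.58 in DM1 to DM3. DM1 and DM2 were below every Ctrl value and DM3 was above them, for a log2 change of -0.16 ± 0.14 (adjusted p = 0.510 by limma). Atp5g3, the most abundant of the 3, was at 445.01, 445.30 and 455.67 FPKM in Ctrl1 to Ctrl3 and at 430.95, 439.21 and 484.35 in DM1 to DM3, and its groups overlapped (log2 change 0.02). Of the c-ring FPKM, Atp5g2 thus took 13.6% and 13.9% in Ctrl1 and Ctrl2 and 17.3%, 18.5% and 16.8% in DM. The share of Atp5g1 was 26.1% and 25.8% in Ctrl and 22.5%, 21.7% and 24.1% in DM, and that of Atp5g3 between 59.1% and 60.4% throughout. The summed level of the ring genes overlapped between groups and was 738.1 FPKM ± 0.325 (SD, n = 2) in Ctrl and 756.8 ± 55.6 (SD, n = 3) in DM.

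**Figure D3:**
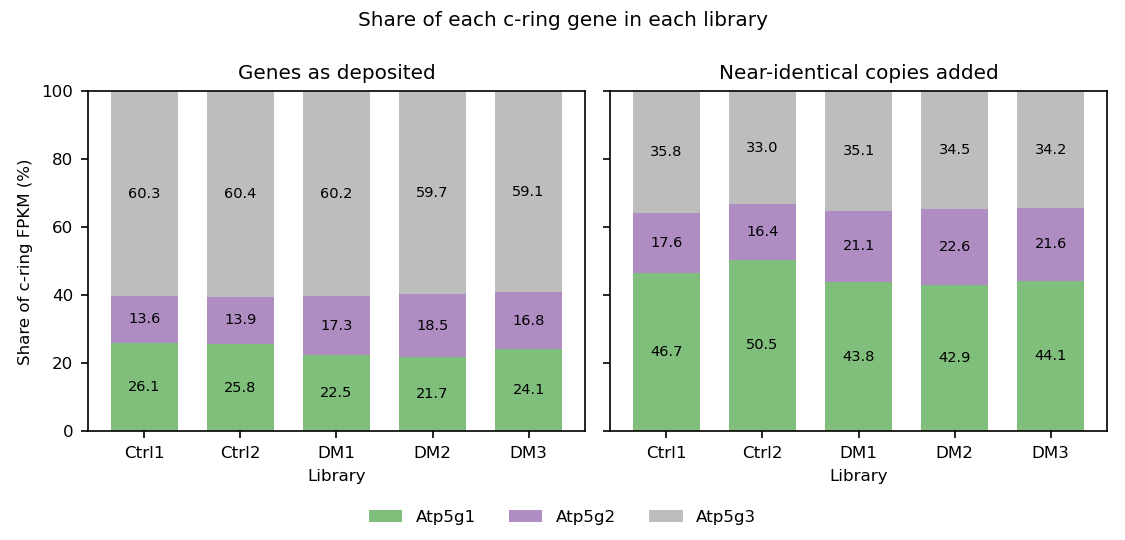
Share of each c-ring gene in the summed FPKM of the 3 genes, in percent, for each complete library: at left from the genes as deposited, at right after the FPKM of near-identical copies elsewhere in the genome were added. In both panels the Atp5g2 share is larger in every DM library than in Ctrl1 and Ctrl2, and the Atp5g1 share is smaller.

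Copies of these genes elsewhere in the genome were also listed with signal. A search of the annotated transcripts found 31 copies of 11 members with at least 95% identity, and 20 of the copies had a mean of at least 1 FPKM. For Atp5g1 the copy Gm10039 was listed at 387.86 and 491.10 FPKM in Ctrl1 and Ctrl2 and at 377.44, 386.25 and 427.38 in DM, more than the parent gene itself. Gm10221, identical to Atp5l over its 309 bases, was at 335.20 to 383.43 FPKM where Atp5l was at 48.09 to 65.19. Copies thus held 87.6% of the combined FPKM of Atp5l and its copies. FPKM is scaled to length, so a larger FPKM of a short copy need not mean more reads. Atp5l has 6443 exon bases, and Atp5g1 has 4912 where Gm10039 has 411. Gm16418 held a level like that of Uqcr11 (255.25 to 356.17 FPKM), and Gm10175 and Gm10231 together held 53.5% of the combined level of Atp5g2. Reads from stretches that a copy and its parent share may be assigned to either, so the levels of these members are uncertain. How many reads this concerns was not tested. With copies added, 0 members were called, and of the 20 copies tested 0 were called.

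The comparison between groups kept its direction for 9 of the 11 members after the copies were added, and Uqcrb was near 0 either way. Atp5g2 with its copies was at 218.77 and 221.41 FPKM in Ctrl and at 258.78, 287.40 and 306.41 in DM (log2 change 0.36, adjusted p = 0.124 by limma), and its share of the ring was 17.0% ± 0.813 (SD, n = 2) in Ctrl and 21.8% ± 0.758 (SD, n = 3) in DM. By summed FPKM, not weighted by length, the order of the ring genes changed: with copies Atp5g1 took 48.6% and Atp5g3 34.4% in Ctrl. Cycs turned from 0.09 to -0.24. Its copy Gm10053, annotated as protein-coding and 99.9% identical over 946 bases, was at 102.64 and 113.54 FPKM in Ctrl1 and Ctrl2 and at 61.69, 61.14 and 81.68 in DM (adjusted p = 0.0710 by limma). Another copy, Gm10108, was at 68.84 FPKM in Ctrl2 and at 2.73 to 3.48 in the other complete libraries.

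The DM libraries did not act as one for these genes. DM3 was the highest of the 3 for 27 of 38 members and the lowest for 9, where over all genes tested it was highest for 35.2% and lowest for 35.1%. Which members were high in DM3 went with the length of the coding sequence. Of the 26 members with at most 600 coding bases, a limit chosen after the values were seen, DM3 was highest for 23, and the median of DM3 minus the mean of DM1 and DM2 was 0.24 (log2). Uqcc2 (0.55) and Uqcr11 (0.48) stood at the top. Of the 12 longer members it was highest for 4 and lowest for 6, with a median of -0.11 and with Sdha (-0.46) and Atp5b (-0.32) at the bottom. Across the 38 members the Pearson r of this difference with log2 coding length was -0.676, a description over genes that share the same 3 libraries. The same order, with smaller differences, held for all nuclear protein-coding genes (medians 0.10 for 1447 short and -0.02 for 8606 longer genes). The 94 cytosolic ribosomal protein genes, chosen by name without a length limit, were highest in DM3 for 65.

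DM3 was the highest DM library for 4 of 8 genes of complex II, 10 of 13 of complex III and 13 of 17 of complex V. With DM1 and DM2 alone the median log2 changes were -0.12 for complex II, -0.25 for complex III and -0.03 for complex V. With DM3 alone they were -0.22, -0.04 and 0.12. The lower side of complex III thus came mostly from DM1 and DM2, and Cyc1 and Uqcrfs1 were low in all 3. The part of RNA quality or library preparation in this pattern was not tested.

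**Figure D4:**
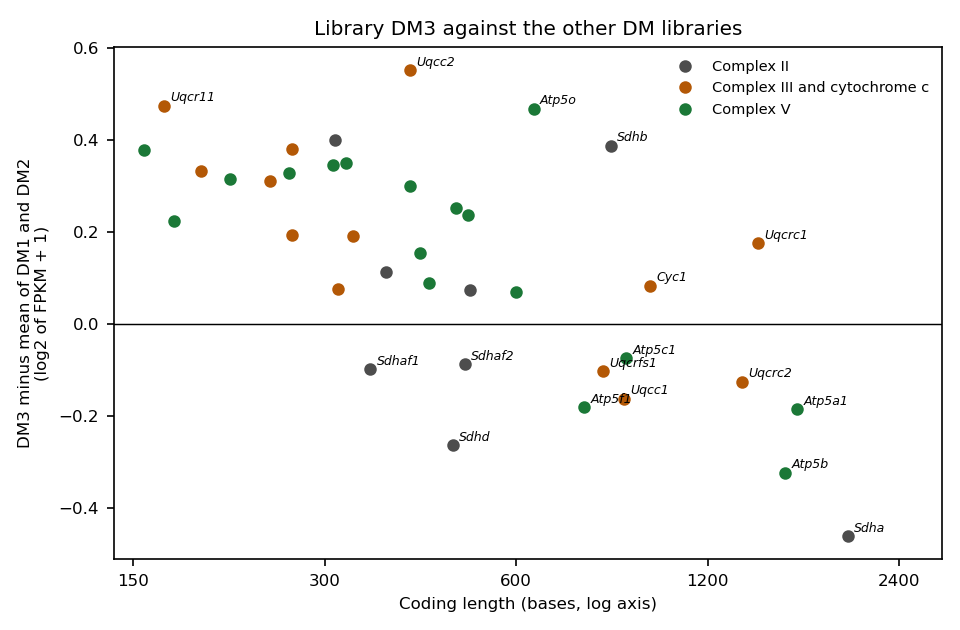
DM3 minus the mean of DM1 and DM2, on the log2 scale of FPKM + 1, against the length of the coding sequence in bases (log axis) for the 38 tested genes, coloured by complex. Points above 0 are genes with a higher value in DM3. Short genes lie mostly above 0, and Sdha, the longest, lies lowest at -0.46.

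Genes that serve the same complexes but carry other names were examined as a list. Of 22 such genes 21 were found, all were tested, and 2 were called higher and 2 lower (backgrounds 3.64% and 2.17% of all genes), and the median log2 change was -0.28. Atpif1, the inhibitor that stops ATP synthase from hydrolysing ATP when the membrane potential collapses, was at 57.50 and 66.04 FPKM in Ctrl1 and Ctrl2 and at 118.59, 141.16 and 147.37 in DM. Every DM library was above both Ctrl libraries, and it rose by 1.12 ± 0.15 on the log2 scale (adjusted p = 0.0169 by limma). Cyb5r3, a cytochrome b5 reductase that can feed electrons to ubiquinone, rose from 14.4 ± 0.672 (SD, n = 2) to 24.0 ± 1.37 FPKM (SD, n = 3; log2 change 0.70, adjusted p = 0.0301). Bcs1l, the chaperone that inserts Uqcrfs1 into complex III, was at 8.46, 8.33 and 8.60 FPKM in Ctrl1 to Ctrl3 and at 5.32, 4.59 and 4.87 in DM (log2 change -0.67 ± 0.12, adjusted p = 0.0341). Higd1a, a hypoxia-induced protein of the respiratory supercomplexes, fell from 24.3 ± 0.672 to 14.3 ± 1.43 FPKM (log2 change -0.73, adjusted p = 0.0349). Atpaf2, which guides the assembly of the F1 alpha subunit, just missed the threshold at 10.3 and 6.54 FPKM (adjusted p = 0.0504).

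**Figure D5:**
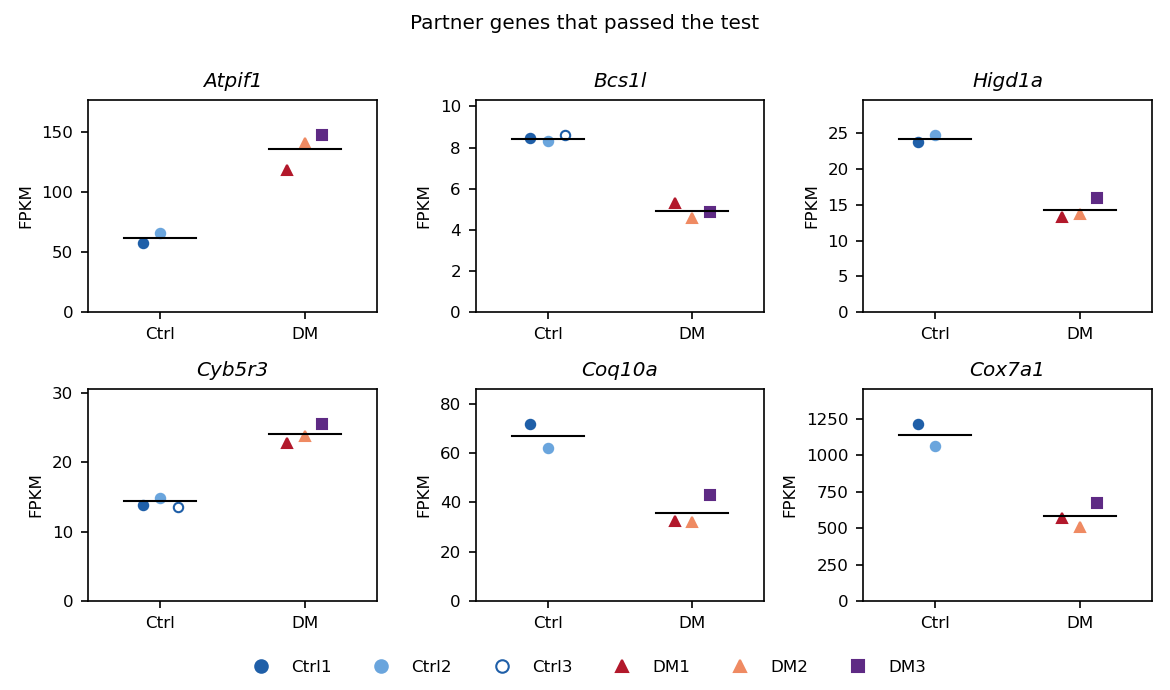
FPKM of 6 partner genes that passed the limma test, in each library on linear axes that start at 0; horizontal lines are the means of Ctrl1 and Ctrl2 and of the 3 DM libraries, and Ctrl3 (open circle) is shown where its file lists the gene. Atpif1 and Cyb5r3 were higher in every DM library, and Bcs1l, Higd1a, Coq10a and Cox7a1 lower.

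The electron carrier between complexes II and III, coenzyme Q, is made and bound by another set of proteins. Of 13 genes for these proteins, all tested, 10 were lower in DM by their mean, with a median log2 change of -0.15. Among them 1 was called, near the 5.82% of all genes. This was Coq10a, a lipid-binding protein that delivers the carrier to complex III and is not an enzyme of its synthesis. Coq10a fell from 66.7 ± 6.99 to 35.8 ± 6.12 FPKM (log2 change -0.89, adjusted p = 0.0400 by limma). The mitochondrially encoded partners were not called: mt-Cytb, the cytochrome b of complex III, had a log2 change of -0.34, and mt-Atp6 and mt-Atp8 of complex V had -0.21 and -0.32. Of the other nuclear respiratory genes, complex I had 0 of 46 called by limma, against 5.82% of all genes. It had 5 at an unadjusted p under 0.05, against 26.6% of all genes, and a median of -0.10. In complex IV, 16 of 18 genes were tested, with a median of 0.06, and Cox7a1, the heart and skeletal muscle form of a small subunit, fell from 1137.6 to 584.5 FPKM (log2 change -0.97, adjusted p = 0.0261). Differences between the complexes were not tested.

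Transcription factors and coactivators that control respiratory genes were also measured. Of 13 such genes, 12 were tested and 0 were called by limma, against 5.82% of all genes. An unadjusted p under 0.05 was found for 2, against 26.6% of all genes, and the median log2 change was -0.0064. These 2 were the coactivators Ppargc1a and Ppargc1b, with log2 changes of 0.45 and 0.70. Ppargc1a was at 12.22 and 10.32 FPKM in Ctrl1 and Ctrl2 but at 21.38 in Ctrl3, above its 17.44, 17.38 and 12.64 in DM. Nrf1 was below the filter, at 0.44 to 0.88 FPKM.

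Binding motifs of such factors were counted in the 250 bases before the start site of 29 members with a RefSeq promoter, on both strands. The site of nuclear respiratory factor 1, searched as GCGC, any base and TGCGC, was in 6 of 29 (20.7%) and in 3.86% of 27025 promoters: those of Sdha, Sdhd, Uqcc2, Atp5g2, Atp5h and Atp5k. The ETS core CCGGAAG, bound by Gabpa, was in 8 (27.6% against 7.05%), among them Sdhd, Uqcr11 and Uqcrh. The half-site AAGGTCA of oestrogen-related receptors was in Atp5g3, Atp5l and Uqcc3 (10.3% against 4.05%). The Sp1 box GGGCGG was in 34.5% against 32.9%, and the Yy1 motif AAGATGGC was in 0 of 29 against 1.59%. A match is a description of the letters in these windows.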

How the data were processed

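RNA was TRIzol-extracted, poly(A)-selected and copied with a dUTP-marked second strand, per the labels' protocols. The authors deposited FPKM per gene, made with cutadapt 1.9, HISAT2 2.0.4 and StringTie 1.3.4d on GRCm38, per the submitters' processing notes. For the strand setting, annotation release and depth the labels and notes give nothing, so no counting interval is given, and reads of overlapping or near-identical genes may be shared. Symbols and lengths came from GENCODE M21 (55141 of 55401 identifiers matched).

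Genes that reached 1 FPKM in 2 or more of Ctrl1, Ctrl2 and DM1 to DM3 were tested on log2(FPKM + 1), which understates changes of low genes, with limma 3.58.1 in R 4.3.3 (eBayes with trend), two-sided, adjusted by Benjamini-Hochberg over 11556 genes, threshold 0.05. Ctrl3 entered a separate fit. The test was checked on simulated data, where most changes of the size seen among the members were not called. Copies were found with BLAST 2.17.0 (at least 95% identity over at least 80% of the copy and 150 bases). Alternatives changed scaling, filter, pseudocount, variance model, length and GC trend, pairing and libraries. Copies were added after the values were seen, and the replicate block on the genes of all 6 files was not planned either. Every member is named; values in every library are given for the most abundant gene and the 3 largest absolute changes of each complex and for the c-ring genes. The members and lists were chosen with earlier results of these data known. No batch is labelled.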

Additional observations from a re-analysis of the deposited data

How the results depend on the processing

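Across 21 alternatives, the log2 changes of the 38 tested genes gave 764 values: 714 kept direction and side of the threshold, 8 kept direction and passed it, and 42 had the other sign. The sign changed for 15 genes, whose reported log2 change was at most 0.14 in size, and 23 genes kept their sign under every alternative run for them. The count of members called lower in DM, 0 as reported, was 1 with quantile normalization or with rescaling to nuclear protein-coding genes, and 2 with Ctrl3 added, on the genes of all 6 files, on those genes with the replicate block, or at an adjusted p of 0.1. The 1 was Cyc1 and the 2 were Cyc1 and Sdhaf4. At an adjusted p of 0.1, 14.2% of all genes were called. On the genes of all 6 files, 20.5% of all genes were called, beside 2 of the 22 members listed. For the other alternatives the share of all genes is not given here, so their counts have no background. Among the alternatives with at least 2 Ctrl libraries, the rest gave a count of 0 lower in DM, and all gave 0 higher.

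The median of complex II, -0.21 as reported, was -0.11 with a filter at 5 FPKM, which drops low assembly factors, -0.28 with centring or quantile normalization, -0.16 as TPM, -0.27 with rescaling to nuclear protein-coding genes and -0.12 with the replicate block. That of complex III, -0.12, was -0.25 with the replicate block and on the genes of all 6 files with or without the block, -0.056 as TPM, -0.19 with centring, -0.17 with quantile normalization, -0.18 with rescaling to nuclear protein-coding genes, -0.21 with the length and GC trend removed and -0.22 with copies added. The median of all members, -0.08, ran from -0.16 with quantile normalization to -0.0097 as TPM, and that of complex V, -0.0093, from -0.078 with centring to 0.059 as TPM. Leaving out each library in turn gave -0.083 to -0.036 for all members, -0.24 to -0.12 for complex II, -0.25 to -0.036 for complex III and -0.033 to 0.038 for complex V. With 1 Ctrl library left, it was assumed to vary like the DM libraries. The genes of all 6 files include 6 of the 13 members of complex III, so that median is over another set of genes. The medians with the replicate block equal those without DM3, at -0.12 for complex II and -0.25 for complex III. What else shifts the medians was not tested. Of the FPKM of all genes in place of nuclear protein-coding ones, complex II held 0.173% in Ctrl and 0.166% in DM, complex III 0.506% and 0.483%, and complex V 0.844% and 0.883%. As shares of fragments (FPKM times exon length), the c-ring held 45.2% and 41.2% Atp5g1, 8.17% and 10.8% Atp5g2, and 46.7% and 48.0% Atp5g3 in Ctrl and DM. Shares of FPKM, not weighted by length, were 25.94% and 22.76%, 13.75% and 17.55%, and 60.31% and 59.68% for these genes without copies. After copies were added, the shares of FPKM were 48.6% and 43.6%, 17.0% and 21.8%, and 34.4% and 34.6%.

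Signs changed as follows, on the log2 scale. With quantile normalization, Atp5a1 was 0.21, Atp5b 0.25, Atp5e -0.051, Atp5g3 -0.064, Atp5l -0.0044, Cycs -0.087 and Sdhc -0.064. As TPM, Atp5b was 0.037, Atp5d 0.059, Atp5j2 0.0045, Sdhd 0.066, Uqcrb 0.067 and Uqcrc2 0.0027. With the replicate block, in which DM3 has no partner, Atp5b was 0.076, Atp5g3 -0.033, Atp5l -0.0069, Atp5o -0.037 and Sdhd 0.084. Atp5g3 was -0.051 with centring and -0.041 with rescaling to nuclear protein-coding genes. Sdhd was 0.0027 with Ctrl3 added, on the genes of all 6 files, and on those with the replicate block. With copies added, Cycs was -0.24 and Uqcrb 0.0039. Leaving out each library gave ranges of -0.089 to 0.076 for Atp5b, -0.089 to 0.062 for Atp5d, -0.033 to 0.051 for Atp5g3, -0.17 to 0.018 for Atp5j2, -0.0069 to 0.20 for Atp5l, -0.19 to 0.019 for Atp5mpl, -0.037 to 0.25 for Atp5o, -0.0019 to 0.19 for Cycs, -0.074 to 0.084 for Sdhd, -0.39 to 0.22 for Uqcc1, -0.065 to 0.038 for Uqcrb and -0.14 to 6.1e-05 for Uqcrc2.

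Nothing in the labels says that the shared replicate numbers pair the samples. Same-numbered libraries had correlations of 0.176, -0.049 and 0.151 in their deviations from the group means. Ctrl1 with DM1 and Ctrl3 with DM3 were best matches, but Ctrl2 correlated best with DM3 (0.093) and DM2 with Ctrl1 (0.088). Of the atrial markers, Myl7 fell from replicate 1 to 3 in both groups (262.36 to 0.21 FPKM in Ctrl, 357.43 to 0.28 in DM). Sln, Myl4 and Nppa, not listed in Ctrl3, fell from replicate 1 to 2 in both groups. Bmp10 rose from replicate 1 to 2 in Ctrl (0.07 to 0.94 FPKM) and fell in DM (2.49 to 0.22). Values from so few libraries cannot decide whether the samples are paired. Depth is unknown, so what it limits cannot be stated.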

Other observations

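Ratios of FPKM between members of 1 complex are given here as values only, for pairs picked after the values were seen. The ratio of Cyc1 to Uqcrb, both of complex III, was 0.811, 0.778 and 0.816 in Ctrl1 to Ctrl3 and 0.637, 0.626 and 0.586 in DM1 to DM3. The ratio of Cyc1 to Uqcrfs1, the catalytic pair, overlapped between groups, at 0.679 in both Ctrl1 and Ctrl2 and 0.612, 0.635 and 0.709 in DM. The ratio of Atp5a1 to Atp5b, which form the head of ATP synthase together in equal number, was 1.15, 1.16 and 1.15 in Ctrl1 to Ctrl3 and 1.09, 1.07 and 1.18 in DM. In the peripheral stalk the ratio of Atp5f1 to Atp5h was 0.611 and 0.571 in Ctrl1 and Ctrl2 and 0.524, 0.413 and 0.344 in DM, without overlap. That of Atp5f1 to Atp5o overlapped, at 0.585, 0.693 and 0.589 in Ctrl1 to Ctrl3 and 0.637, 0.462 and 0.345 in DM.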
